A study of Homo sapiens with 12 samples.

Results

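The prostate target antigens described here are 8 genes whose proteins sit on the surface of prostate epithelial cells or are secreted by them: FOLH1, STEAP1, STEAP2, SLC45A3, TMEFF2, TRPM8, ACPP and SLPI. They were chosen by name from the deposited table of RNA-seq values, where each has 1 row, so they are 8 of 26439 genes kept. LNCaP-EnzR and C4-2B-EnzR are human prostate cancer cell lines that had become resistant to enzalutamide, an antiandrogen drug, and were kept in the drug at 2 µM and 10 µM, respectively. Each line was infected with a pLKO control lentivirus (LKO) or with a lentivirus carrying a hairpin against CXCR7 (shCXCR7), and RNA was taken 4 days later, giving 4 groups of 3 libraries and 12 libraries in all. CXCR7 is an atypical chemokine receptor, and C4-2B is itself a derivative of LNCaP. All groups thus share drug resistance and lentiviral infection, the dose of drug differs between lines, and line and dose cannot be told apart. The sample titles also carry a different P number for each line, which they do not explain. It cannot be told apart from line either. The sources used here do not say which of the study's hairpins was used or whether the replicates were separate cultures, so p-values measure the spread between these libraries, which may be technical.

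Prostate luminal cells carry on their surface or release a set of proteins, several of which serve as targets for imaging, antibodies or vaccines. FOLH1, known as PSMA, is a surface peptidase that removes glutamate from folates and is the target of prostate PET tracers and radioligands. STEAP1 and STEAP2 belong to a family of membrane proteins whose metalloreductases reduce iron and copper, and STEAP1 is pursued as an antibody target. SLC45A3 (prostein) is a membrane protein of the transporter superfamily, TMEFF2 a transmembrane protein with follistatin-like and EGF-like domains, and TRPM8 the cold- and menthol-gated cation channel. ACPP, now called ACP3, encodes prostatic acid phosphatase, a classical secreted marker and vaccine antigen, and SLPI encodes a secreted inhibitor of leukocyte proteases. Many of these genes are known to respond to androgen.

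The genes lie apart in the genome except for the STEAP pair. In GENCODE annotation of GRCh38, STEAP1 spans chr7:90154456-90164829 and STEAP2 chr7:90167590-90238137, both on the + strand, with a gap of 2.761 kb between them. FOLH1 lies at chr11:49145092-49208638 (- strand, 19 exons in the canonical transcript), SLC45A3 at chr1:205657851-205680509 (-, 5 exons), TMEFF2 at chr2:191949043-192194933 (-, 10 exons), TRPM8 at chr2:233917373-234019522 (+, 26 exons), ACPP at chr3:132317369-132368302 (+, 10 exons) and SLPI at chr20:45252239-45254564 (-, 4 exons). Promoter sequence from RefSeq (GRCh38.p14), 250 bases before to 50 after the start, was at hand for 6 of the 8 genes. The STEAP pair and the genes of these 6 with the largest tested difference between the control lines, TRPM8 and ACPP, are shown because their promoters are of different kinds. Capitals mark each CG dinucleotide, and the + strand is read from left to right for all 4. One start per gene is shown, although RefSeq held 6 starts for TRPM8 and 2 for STEAP2. The windows of the other starts are not described here. The RefSeq start shown for STEAP2 lies inside the span that GENCODE gives the gene.
STEAP1 (chr7:90154219-90154518): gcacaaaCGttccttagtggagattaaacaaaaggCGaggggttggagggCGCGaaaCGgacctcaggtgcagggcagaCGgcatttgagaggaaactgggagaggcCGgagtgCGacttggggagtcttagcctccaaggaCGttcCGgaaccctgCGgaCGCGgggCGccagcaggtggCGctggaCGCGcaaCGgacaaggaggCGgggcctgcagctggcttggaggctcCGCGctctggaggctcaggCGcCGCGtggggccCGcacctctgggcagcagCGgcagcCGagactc
STEAP2 (chr7:90211490-90211789): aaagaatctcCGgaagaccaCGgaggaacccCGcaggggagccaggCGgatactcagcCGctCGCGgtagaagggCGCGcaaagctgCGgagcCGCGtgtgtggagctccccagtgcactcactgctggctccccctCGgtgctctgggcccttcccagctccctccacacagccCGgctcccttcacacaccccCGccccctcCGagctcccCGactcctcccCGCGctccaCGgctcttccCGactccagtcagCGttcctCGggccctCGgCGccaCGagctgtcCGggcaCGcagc
TRPM8 (chr2:233917123-233917422): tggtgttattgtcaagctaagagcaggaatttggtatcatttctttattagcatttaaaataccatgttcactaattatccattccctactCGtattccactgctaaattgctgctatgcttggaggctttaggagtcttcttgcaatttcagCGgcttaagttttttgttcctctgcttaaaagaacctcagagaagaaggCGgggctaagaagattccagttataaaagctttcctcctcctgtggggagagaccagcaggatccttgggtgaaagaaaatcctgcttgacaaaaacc
ACPP (chr3:132317157-132317456): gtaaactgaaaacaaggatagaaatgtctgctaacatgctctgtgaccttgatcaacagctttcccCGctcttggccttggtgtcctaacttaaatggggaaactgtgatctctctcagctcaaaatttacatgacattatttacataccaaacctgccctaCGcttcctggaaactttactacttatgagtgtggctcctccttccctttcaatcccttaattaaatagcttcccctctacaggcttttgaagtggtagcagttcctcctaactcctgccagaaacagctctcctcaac

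At the starts shown, the STEAP promoters are rich in CG dinucleotides, with 27 in STEAP1 and 28 in STEAP2. TRPM8 held 3 and ACPP 2, against a median of 14 over 35116 promoters of that length. The G and C content was 66.7% and 70.3% in the STEAP pair, 41.0% in TRPM8 and 43.7% in ACPP, against a median of 58.7%. TMEFF2 and SLC45A3, not printed, were of the first kind, with 24 and 26 CG dinucleotides. The letters TATAAA occurred once, 27 bases before the start shown for TRPM8, and in no other of the 6 windows. On either strand, 11.5% of all promoters hold them.

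One library stood apart. In LNCaP-EnzR shCXCR7 replicate 3, 27.4% of the total behind the RPKM fell in genes, against 67.0% to 75.5% in the other 11 libraries, and 1636 genes were at 0 against 8719 to 9652. It held 9774351 reads in genes, within the 6380771 to 9832424 of the other libraries. Genes at 0 in all other libraries stood there at a median of 0.475 RPKM after rescaling, so values near this level in that library cannot be told from its background. RPKM values (reads scaled to length and to library total) were therefore rescaled within each line by median-of-ratios factors. These put the typical gene at the same level in every library of a line, but not across the 2 lines. All levels below are rescaled RPKM unless stated otherwise. CXCR7, listed as ACKR3, stood at 117 ± 5.57 in control and 49.4 ± 6.86 in shCXCR7 libraries of LNCaP-EnzR and at 85.3 ± 1.24 and 21.6 ± 2.40 in C4-2B-EnzR (SD, n = 3 each). Its log2 fold changes were -1.24 (adjusted p = 2.02e-05, limma) and -1.97 (adjusted p = 1.21e-05, limma). These differed by -0.73 (adjusted p = 0.00685, limma), so the knockdown was deeper in C4-2B-EnzR. In every difference of response below, line and depth of knockdown cannot be told apart. The luminal markers KRT8, KRT18, HOXB13 and FOXA1 were each at 46.4 or more in every library and summed to between 306.2 and 395.7, the library that stands apart being the lowest.

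The antigens fell into 3 tiers of abundance, and the tiers were not the same in the 2 lines. FOLH1 led in both, at 206 ± 11.6 in LNCaP-EnzR control libraries, where 115 genes were higher on this scale per length, and at 310 ± 22.0 in C4-2B-EnzR control libraries, where 65 were. STEAP2 and STEAP1 followed in LNCaP-EnzR at 103 ± 5.95 and 78.6 ± 0.85. In C4-2B-EnzR control libraries SLPI came second at 163 ± 13.4, ahead of STEAP2 at 111 ± 8.35 and STEAP1 at 69.6 ± 3.86 (SD, n = 3 each). None of these neighbours in the order overlapped between their libraries within a line. ACPP at 19.98 ± 1.08 and SLC45A3 at 4.00 ± 1.10 came next in C4-2B-EnzR. Among LNCaP-EnzR control libraries ACPP at 2.76 ± 0.29 and SLC45A3 at 2.27 ± 0.57 overlapped, and SLPI at 1.23 ± 0.37 lay below both. TRPM8 and TMEFF2 were lowest, at 0.070 ± 0.028 and 0.073 ± 0.022 in LNCaP-EnzR and at 0.923 ± 0.130 and 0.014 ± 0.014 in C4-2B-EnzR control libraries (SD, n = 3 each). These lowest values rest on 3 to 9 reads per library for TRPM8 in LNCaP-EnzR and on 0 to 6 reads for TMEFF2, so the order of these 2 genes in LNCaP-EnzR could not be told at this depth.

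**Figure D1:**
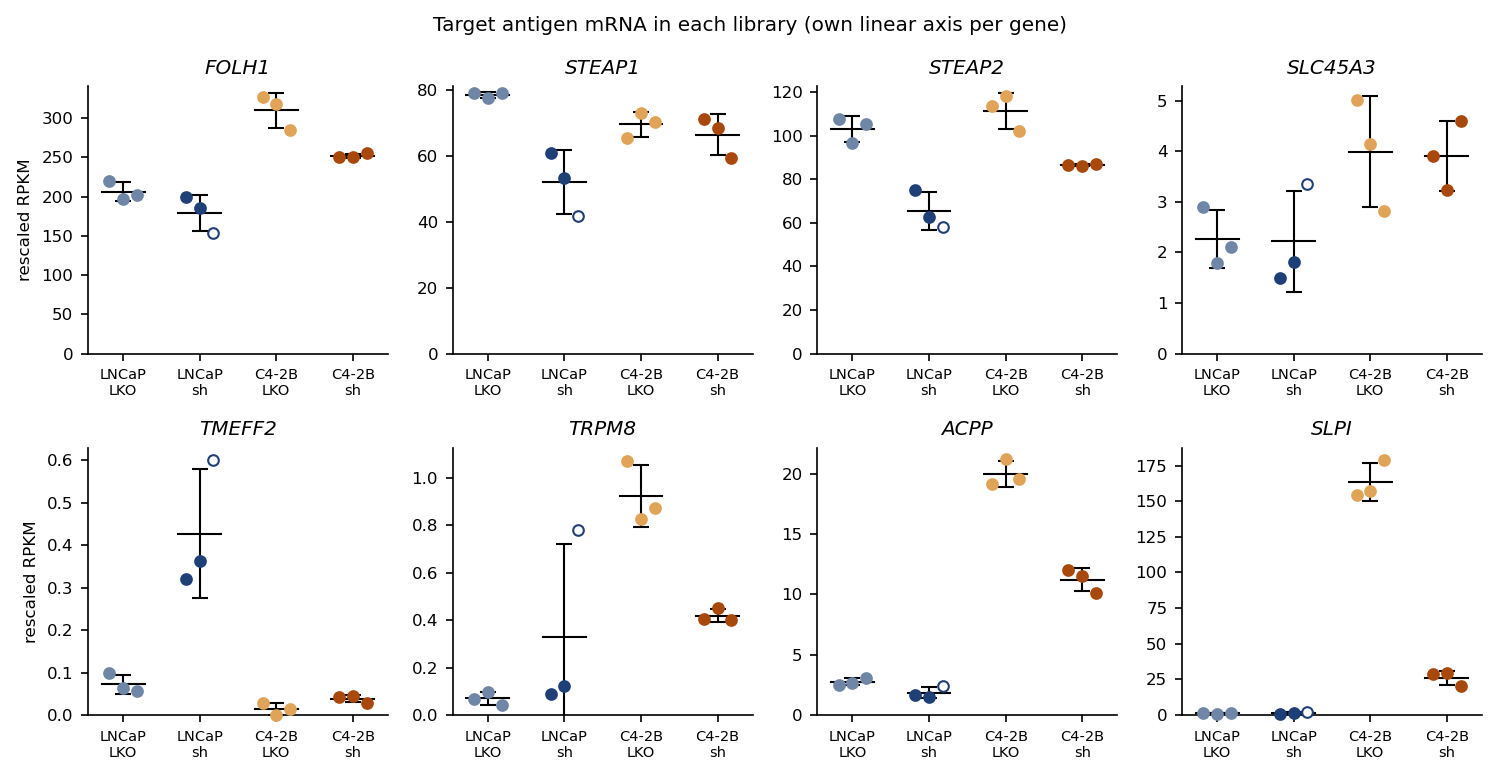
Rescaled RPKM of the 8 antigens in each of 12 libraries (sh, shCXCR7), with the mean and SD (n = 3) in black and a linear axis from 0 for each gene; the open circle is LNCaP-EnzR shCXCR7 replicate 3, whose level over silent genes is 0.475, and an error bar that would pass below 0 is cut at the axis. SLPI stands near 160 only in C4-2B-EnzR control libraries, and TRPM8 and TMEFF2 in the open circle lie close to that library's background. Each line is on its own scale, so small differences in height between lines are not to be read.

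Several antigens fell after CXCR7 knockdown, and none that could be tested rose. In LNCaP-EnzR 3 of the 6 antigens tested fell (STEAP1, STEAP2 and ACPP) and 0 rose, while 21.3% of 13071 tested genes fell and 19.4% rose. In C4-2B-EnzR 5 of the 7 tested fell (FOLH1, STEAP2, TRPM8, ACPP and SLPI) and 0 rose, while 21.3% of 13346 tested genes fell and 21.2% rose. TRPM8 reached the limit for testing through the control group alone, so it could enter only if control was higher, and the count without it was 4 of 6. Over the tested antigens the median log2 fold change was -0.37 and -0.36, respectively, beside 0.01 and -0.0011 over all tested genes. The groups were without overlap for 3 of 6 and 5 of 7 antigens, as for 52.3% and 54.7% of all tested genes. In bulk RNA, fewer cells that make an antigen and less RNA per cell cannot be told apart. These calls (limma, Benjamini-Hochberg adjusted p under 0.05 over all tested genes) covered genes that reached 0.5 RPKM in 3 or more libraries of a fit, which TMEFF2 did not reach in either line and TRPM8 did not reach in LNCaP-EnzR. An exact permutation test of 3 libraries against 3 cannot give a p under 0.1. Without LNCaP-EnzR shCXCR7 replicate 3 the LNCaP-EnzR count stayed at 3 lower and 0 higher of 6, but on the values as deposited, where that library is scaled low in expressed genes, it was 0.

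**Figure D2:**
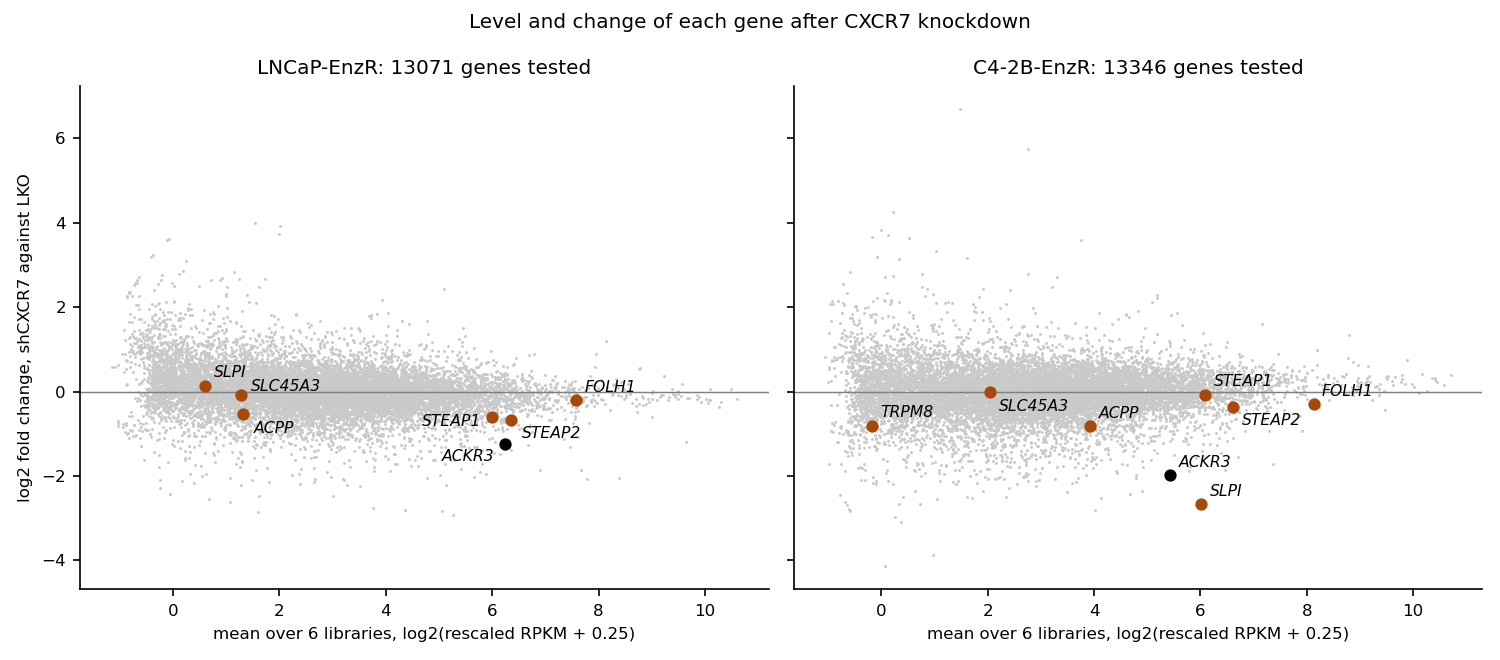
Log2 fold change after CXCR7 knockdown (shCXCR7 against LKO, y axis) against the mean level over 6 libraries (x axis, log2 of rescaled RPKM plus 0.25) for every tested gene in grey, with the tested antigens in orange and ACKR3 in black. SLPI at -2.66 in C4-2B-EnzR lies below ACKR3 at -1.97, and the other antigens lie within the cloud of genes of like level.

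The surface antigens of highest level, FOLH1 and the STEAP pair, moved by less than 2-fold. FOLH1 in LNCaP-EnzR stood at 220, 197 and 202 in control libraries and at 199, 185 and 154 in shCXCR7 libraries. These groups overlapped, and the log2 fold change of -0.21 (standard error 0.12, 95% interval -0.47 to 0.05) did not pass the test (adjusted p = 0.182, limma). With quantile normalization it was -0.0080 (adjusted p = 0.914, limma), and it was called in 0 of 21 alternatives. In C4-2B-EnzR FOLH1 stood at 327, 318 and 285 in control and at 251, 250 and 255 in shCXCR7 libraries, all 3 below every control. It fell to 81.3% of control there (log2 fold change -0.30, standard error 0.07, adjusted p = 0.0128, limma), a call lost at an adjusted p of up to 0.0626 when C4-2B-EnzR LKO replicate 2 or shCXCR7 replicate 1 or 2 was left out. The 2 responses of FOLH1 differed by -0.09 on the log2 scale (95% interval -0.38 to 0.21, adjusted p = 0.737, limma), and by -0.45 with quantile normalization, where the difference passed (adjusted p = 0.0321, limma).

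Its near-copy FOLH1B has a canonical transcript that shares 26.9% of the 50-base words of FOLH1, so reads of the 2 genes could be confused by the counting. FOLH1B itself held 78 reads over all 12 libraries against 98879 of FOLH1, and its group means lay between 0.084 and 0.323. It was below the limit for testing in both lines.

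STEAP1, the antibody target of the family, fell in LNCaP-EnzR. It stood there at 79.1, 77.6 and 79.1 in control and at 61.1, 53.3 and 41.8 in shCXCR7 libraries, a gap between the groups in which the library that stands apart is the lowest. The mean was 66.3% of control (log2 fold change -0.61, standard error 0.12, adjusted p = 0.00348, limma), and without that library the log2 fold change was -0.46 (adjusted p = 0.00116, limma). In C4-2B-EnzR the values were 65.5, 73.1 and 70.4 in control and 71.4, 68.6 and 59.5 in shCXCR7 libraries. There the groups overlapped, with a log2 fold change of -0.07 (95% interval -0.27 to 0.13, adjusted p = 0.551, limma). The difference between the lines was 0.54 on the log2 scale (95% interval 0.18 to 0.90) and missed the threshold at an adjusted p of 0.0507 (limma); it passed in 9 of 25 alternatives, with adjusted p from 0.0156 (without LNCaP-EnzR shCXCR7 replicate 1) to 0.737 (values as deposited). Leaving out C4-2B-EnzR shCXCR7 replicate 3 was among the 9 (adjusted p = 0.0382, limma). Its near-copy STEAP1B, which shares 23.8% of the 50-base words of STEAP1, held 31 reads in all against 13517.

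STEAP2, a metalloreductase, fell in both lines. In LNCaP-EnzR it stood at 108, 96.6 and 105 in control and at 75.2, 62.8 and 58.3 in shCXCR7 libraries. In C4-2B-EnzR it stood at 114, 118 and 102 in control and at 86.7, 86.2 and 87.2 in shCXCR7 libraries. In both lines every shCXCR7 library lay below every control library. LNCaP-EnzR thus fell to 63.4% of control (log2 fold change -0.66, standard error 0.11, adjusted p = 0.000828, limma) and C4-2B-EnzR to 77.8% (log2 fold change -0.36, standard error 0.07, adjusted p = 0.00555, limma). The difference of 0.30 between the responses (95% interval 0.02 to 0.59) did not pass the test after adjustment (adjusted p = 0.152, limma), but was 0.40 and passed without LNCaP-EnzR shCXCR7 replicate 1 (adjusted p = 0.0389, limma). Without LNCaP-EnzR shCXCR7 replicate 3 the LNCaP-EnzR log2 fold change was -0.58 (adjusted p = 0.00137, limma). STEAP1 and STEAP2 share 0% of their 50-base words, so these are separate measurements.

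**Figure D3:**
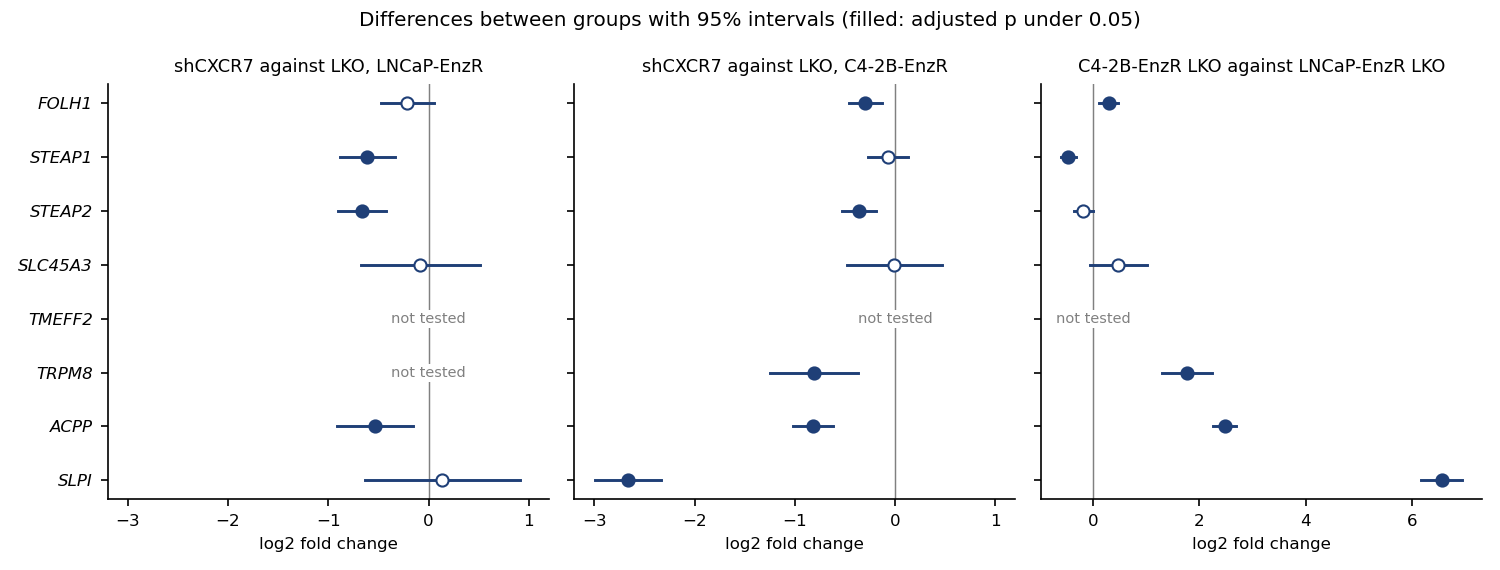
Log2 fold changes of the antigens with their 95% intervals (limma) for knockdown in LNCaP-EnzR, knockdown in C4-2B-EnzR and C4-2B-EnzR control against LNCaP-EnzR control, filled where the adjusted p is under 0.05 (the right panel has its own scale). All filled knockdown points lie left of 0, and SLPI is farthest from 0 in the middle and right panels.

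Ratios between 2 antigens within a library do not depend on how libraries are scaled, so they show which antigens moved relative to each other. The ratio of FOLH1 to STEAP2 was 2.04, 2.05 and 1.92 in LNCaP-EnzR control libraries and 2.65, 2.95 and 2.64 in shCXCR7 libraries. FOLH1 to STEAP1 went likewise, from 2.78, 2.54 and 2.56 to 3.26, 3.48 and 3.68. Neither ratio overlapped between the groups, so FOLH1 was higher relative to both STEAP genes in all 3 shCXCR7 libraries of LNCaP-EnzR (2-sided exact permutation test, p = 0.1 each, the smallest possible, and 0.2 after adjustment over the 8 ratio tests made). In C4-2B-EnzR FOLH1 to STEAP1 overlapped between the groups (4.06 to 4.998 in control and 3.51 to 4.29 in shCXCR7 libraries, exact permutation p = 0.2). FOLH1 to STEAP2 stood there at 2.69 to 2.88 in control and 2.89 to 2.93 in shCXCR7 libraries, which did not overlap but nearly met (exact permutation p = 0.1). The ratio of ACPP to FOLH1 in C4-2B-EnzR was lower in all 3 shCXCR7 libraries, at 0.0397 to 0.0479 against 0.0586 to 0.0685 in control (exact permutation p = 0.1), and overlapped in LNCaP-EnzR. The ratio of STEAP2 to STEAP1 overlapped in both lines, at 1.24 to 1.36 and 1.18 to 1.39 in LNCaP-EnzR and at 1.45 to 1.74 and 1.21 to 1.46 in C4-2B-EnzR.

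**Figure D4:**
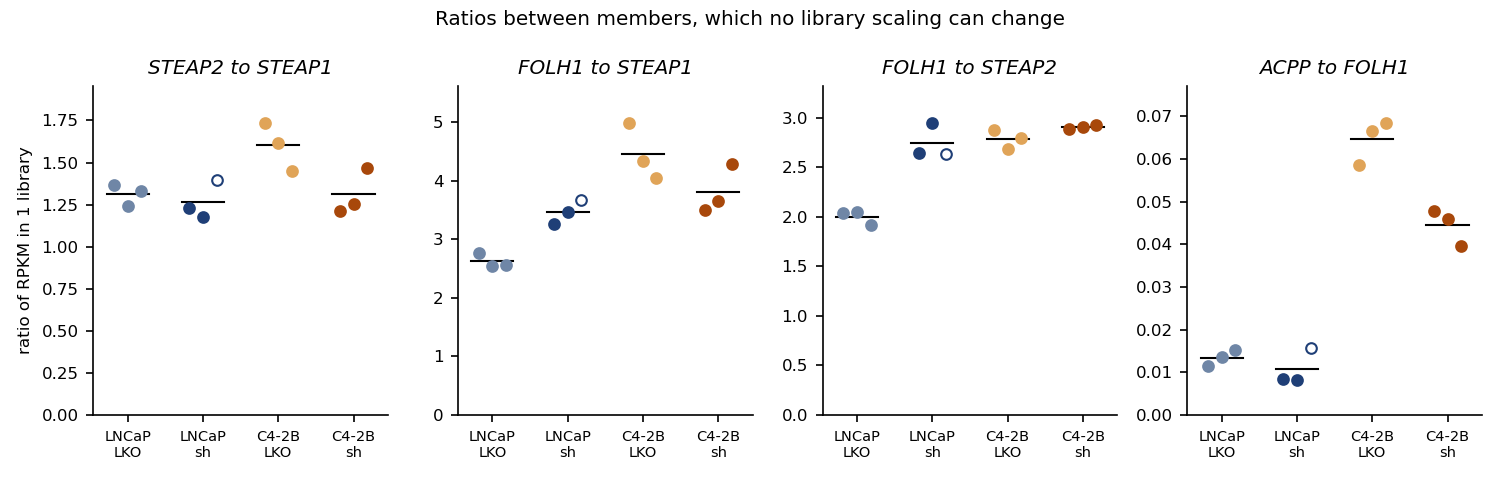
Ratios of RPKM between 2 antigens in the same library (y axis from 0), 1 point per library with the group mean as a line; the open circle is LNCaP-EnzR shCXCR7 replicate 3. In LNCaP-EnzR the ratios of FOLH1 to STEAP1 and to STEAP2 do not overlap between groups, and there the open circle lies with the other 2 shCXCR7 libraries, whereas it lies above them in ACPP to FOLH1.

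Neighbours were taken by position, and within 250 kb of STEAP2 all 5 other genes tested in LNCaP-EnzR fell: STEAP1, CFAP69, GTPBP10, CLDN12 and CDK14, with log2 fold changes from -0.72 (CFAP69) to -0.29 (CDK14), where 21.3% of all tested genes fell. In C4-2B-EnzR 1 of these 5 fell and 1 rose, where 21.3% of all tested genes fell and 21.2% rose. In C4-2B-EnzR CFAP69 fell (log2 fold change -0.53, adjusted p = 0.00851, limma), whereas CLDN12, a claudin of cell junctions, rose from 22.7 ± 1.78 to 26.7 ± 0.45 (SD, n = 3 each; log2 fold change 0.23, adjusted p = 0.0387, limma). CLDN12 had fallen from 18.7 ± 0.22 to 14.1 ± 1.54 in LNCaP-EnzR, and its 2 responses differed by 0.64 (adjusted p = 0.00416, limma). GTPBP10 stood at -0.11 and CDK14 at 0.11 in C4-2B-EnzR and did not pass the test.

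SLC45A3, a surface protein of much lower level than FOLH1 and the STEAP pair, showed no difference that could be detected. It stood at 2.91, 1.79 and 2.12 in control and at 1.49, 1.80 and 3.36 in shCXCR7 libraries of LNCaP-EnzR, and at 5.02, 4.15 and 2.83 against 3.90, 3.23 and 4.60 in C4-2B-EnzR. Control and shCXCR7 libraries overlapped in both lines. The log2 fold changes were -0.08 (95% interval -0.67 to 0.51, adjusted p = 0.838, limma) and -0.01 (95% interval -0.48 to 0.47, adjusted p = 0.979, limma). With 71 to 206 reads per library, these intervals reach changes of the size seen for STEAP2.

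TRPM8, the cation channel, fell in C4-2B-EnzR, the line that had measurable amounts of it. It stood at 1.07, 0.825 and 0.872 in control libraries and at 0.403, 0.451 and 0.402 in shCXCR7 libraries, from 45 to 73 and from 27 to 29 reads. Every shCXCR7 library was below every control, and the mean was 45.4% of control (log2 fold change -0.81, standard error 0.19, adjusted p = 0.0108, limma). With every shCXCR7 value under 0.5, TRPM8 passed the filter through the control libraries alone, so it could be tested only with control higher. With no filter on low values the log2 fold change was again -0.81 (adjusted p = 0.0107, limma). It was not tested when a control library was left out. In LNCaP-EnzR it had 4, 9 and 3 reads in control and 7, 11 and 77 reads in shCXCR7 libraries, the 77 being 1.64 times the background of the library that stands apart. No response of TRPM8 in LNCaP-EnzR could therefore be given.

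TMEFF2 had more reads after knockdown in LNCaP-EnzR, but fell short of the limit for testing. The control libraries held 6, 6 and 4 reads, equal to 0.098, 0.064 and 0.056 RPKM, and the shCXCR7 libraries 26, 34 and 61 reads, equal to 0.319, 0.363 and 0.600 RPKM. The groups did not overlap, but the third shCXCR7 value was 1.26 times that library's background, and all values but this one lay under the limit of 0.5 RPKM for testing. With no filter on low values the log2 fold change was 1.05 and did not pass (adjusted p = 0.149, limma), whereas voom on the recovered reads with no filter gave 2.49 over all 6 libraries and passed (adjusted p = 0.0279, limma). Leaving out the third library as well, the first of these was 0.95 and passed (adjusted p = 0.00523, limma). The last 2 settings were chosen after seeing the data. In C4-2B-EnzR the gene had 2, 0 and 1 reads in control and 3, 3 and 2 in shCXCR7 libraries. The library at 0 allows up to 3 reads, or 0.0535 RPKM, for counting error only, so no difference was detectable there.

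Of the secreted proteins, ACPP fell in both lines. In C4-2B-EnzR it stood at 19.2, 21.2 and 19.6 in control and at 12.01, 11.5 and 10.1 in shCXCR7 libraries. The groups were far apart, and the mean was 56.2% of control (log2 fold change -0.82, standard error 0.09, adjusted p = 0.000282, limma). In LNCaP-EnzR it stood at 2.53, 2.67 and 3.09 in control and at 1.67, 1.502 and 2.41 in shCXCR7 libraries, the third of these close to the lowest control. There the log2 fold change was -0.53 (standard error 0.17, adjusted p = 0.0308, limma), and without the third shCXCR7 library -0.72 (adjusted p = 0.00308, limma). Without LNCaP-EnzR LKO replicate 2 or 3 or shCXCR7 replicate 1 or 2 the call was lost, at an adjusted p of up to 0.112. It was also lost with no filter on low values (adjusted p = 0.0902, limma), with no variance trend (adjusted p = 0.0536, limma), with voom and no filter (adjusted p = 0.0697, limma) and on the values as deposited (adjusted p = 0.211, limma), so it held in 13 of 21 alternatives. The difference between the lines was -0.29 (95% interval -0.71 to 0.13, adjusted p = 0.372, limma).

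SLPI, the protease inhibitor, had the largest fall among the antigens tested, in C4-2B-EnzR, where it was abundant. It stood there at 154, 157 and 179 in control libraries and at 28.5, 29.2 and 20.1 in shCXCR7 libraries, from 907 to 1347 and from 143 to 210 reads. The mean was 6.30-fold lower after knockdown (log2 fold change -2.66, standard error 0.14, adjusted p = 2.33e-05, limma), and 10 of 13346 tested genes had a lower log2 fold change. In LNCaP-EnzR SLPI stood at 1.11, 0.934 and 1.64 in control and at 0.715, 1.34 and 2.38 in shCXCR7 libraries, on 6 to 25 reads. The groups overlapped there (log2 fold change 0.14, 95% interval -0.63 to 0.91, adjusted p = 0.783, limma). The responses of the 2 lines differed by -2.80 on the log2 scale (standard error 0.41, adjusted p = 0.00155, limma), and this difference passed in all 25 alternatives, from -3.16 to -2.43. SLPI was the only 1 of 7 tested antigens whose responses differed at this limit, with 0 higher in C4-2B-EnzR, while 6.22% of 14237 tested genes were called lower and 5.75% higher in that test. TRPM8 entered this test with a difference of -1.47 (adjusted p = 0.115, limma), a value that includes the LNCaP-EnzR library at background, and without that library the difference was -0.97 (adjusted p = 0.0498, limma).

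In the control libraries, the 2 resistant lines differed in 5 of the 7 antigens tested, as they did in most tested genes. Of all genes tested there, 32.9% were higher and 32.1% lower in C4-2B-EnzR. The control libraries were rescaled together for this comparison, and they are the same control libraries that enter the knockdown comparisons. SLPI was 109-fold higher in C4-2B-EnzR, at 148, 149 and 169 against 1.30, 1.08 and 1.91 in LNCaP-EnzR (log2 difference 6.56, standard error 0.17, adjusted p = 1.14e-07, limma), and 5 of 13372 tested genes had a larger difference. TRPM8 stood at 1.02, 0.785 and 0.825 against 0.079, 0.115 and 0.051, a log2 difference of 1.77 (standard error 0.20, adjusted p = 0.000145, limma), having passed the filter through C4-2B-EnzR only.

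ACPP was 5.90-fold higher in C4-2B-EnzR control libraries, at 18.4, 20.2 and 18.5 against 2.95, 3.10 and 3.61 (log2 difference 2.48, standard error 0.09, adjusted p = 7.47e-07, limma). FOLH1 was 1.23-fold higher, at 295 ± 22.5 against 241 ± 14.2 (SD, n = 3 each; log2 difference 0.29, adjusted p = 0.0114, limma), and without LNCaP-EnzR LKO replicate 2 or 3 this call was lost at an adjusted p of up to 0.0652. STEAP1 alone was lower, at 66.3 ± 3.45 against 91.6 ± 1.33 (SD, n = 3 each; log2 difference -0.47, adjusted p = 0.000289, limma). STEAP2 (log2 difference -0.18, 95% interval -0.37 to 0.0002) and SLC45A3 (0.48, 95% interval -0.06 to 1.01) did not pass the test. SLC45A3 passed without LNCaP-EnzR LKO replicate 1 (0.64, adjusted p = 0.0491, limma) or C4-2B-EnzR LKO replicate 3 (0.72, adjusted p = 0.0164, limma). The 4 antigens higher and 1 lower of 7 stand beside 32.9% and 32.1% of all tested genes. TMEFF2 was not tested, and with no filter it was lower (log2 difference -0.35, adjusted p = 0.0219, limma), though its reads were 16 over the 3 LNCaP-EnzR and 3 over the 3 C4-2B-EnzR control libraries.

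The line that had more SLPI and ACPP also had more after knockdown. In C4-2B-EnzR shCXCR7 libraries SLPI stood at 25.9 ± 5.09, still above the 1.48 ± 0.84 of LNCaP-EnzR shCXCR7 libraries (SD, n = 3 each, each line on its own scale). ACPP stood at 11.2 ± 0.97 there, above every LNCaP-EnzR library.

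Relatives of the antigens were mostly too low to test in both lines. Of 26 family relatives in the table, 13 were tested in LNCaP-EnzR, with 0 rising and 2 falling, and 12 in C4-2B-EnzR, with 2 rising and 3 falling. Without LNCaP-EnzR shCXCR7 replicate 3 the count in LNCaP-EnzR was 1 rising and 6 falling of 13. TRPM2, a calcium-permeable relative of TRPM8, fell in both lines, from 8.68 ± 0.16 to 4.07 ± 0.52 and from 6.502 ± 0.29 to 3.58 ± 0.32. TRPM7, a channel with a kinase domain, fell in both as well, with log2 fold changes of -0.33 (adjusted p = 0.0192) and -0.50 (adjusted p = 0.00161, limma). TRPM4 rose in C4-2B-EnzR (log2 fold change 0.39, adjusted p = 0.0345, limma) and stood at 0.14 in LNCaP-EnzR (adjusted p = 0.151). NAALADL2, a relative of FOLH1, rose in C4-2B-EnzR from 5.16 ± 0.46 to 8.86 ± 0.49 (SD, n = 3 each), and its responses differed between the lines by 0.58 (adjusted p = 0.0211, limma).

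Other surface targets included genes that rose and genes that fell in each line. Of 22 such genes, 14 were tested in LNCaP-EnzR, with 6 rising and 3 falling, and 18 in C4-2B-EnzR, with 6 rising and 6 falling, at medians of 0.17 and 0.11. Over all tested genes, 19.4% rose and 21.3% fell in LNCaP-EnzR and 21.2% rose and 21.3% fell in C4-2B-EnzR, the shares beside which each such count stands. ALCAM, an adhesion molecule, rose from 3.28 ± 0.40 to 10.2 ± 0.91 in LNCaP-EnzR and from 46.3 ± 5.30 to 90.5 ± 3.48 in C4-2B-EnzR (SD, n = 3 each). ERBB2, the receptor tyrosine kinase HER2, rose with log2 fold changes of 0.68 (adjusted p = 0.000266) and 0.34 (adjusted p = 0.0252, limma). CD46, a complement regulator, fell from 66.7 ± 4.46 to 39.2 ± 4.41 and from 74.3 ± 6.99 to 52.9 ± 0.18 (SD, n = 3 each). EPCAM, an epithelial adhesion protein, fell in C4-2B-EnzR (-0.25, adjusted p = 0.0175, limma) and stood at 0.08 in LNCaP-EnzR (adjusted p = 0.563).

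Other secreted prostate products included larger changes than ACPP. Of 25 genes, 10 were tested in LNCaP-EnzR, with 1 rising and 5 falling, and 13 in C4-2B-EnzR, with 4 rising and 6 falling, at medians of -0.75 and -0.41. KLK3, the gene of prostate-specific antigen, fell from 25.4 ± 1.51 to 7.22 ± 1.11 in LNCaP-EnzR and from 103 ± 9.68 to 29.9 ± 2.72 in C4-2B-EnzR (SD, n = 3 each). Its close relative KLK4 fell by 2.77 and 1.51 on the log2 scale, responses that differed by 1.26 (adjusted p = 0.00054, limma). GDF15, a stress-induced cytokine, fell by 2.07 and 1.24. SPON2, a secreted matrix protein, fell in LNCaP-EnzR (-0.48, adjusted p = 0.00226) and rose in C4-2B-EnzR (0.65, adjusted p = 0.00364, limma), a difference of 1.13 (adjusted p = 0.000883, limma).

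Several antigens are known to belong to the androgen-induced genes. Of 20 genes listed for that class, 19 were tested in each line, with 0 rising and 10 falling in LNCaP-EnzR and 3 rising and 10 falling in C4-2B-EnzR, at medians of -0.22 and -0.37, beside the 21.3% of all tested genes that fell in each line. Without LNCaP-EnzR shCXCR7 replicate 3 the count in LNCaP-EnzR was 1 rising and 11 falling of 19. KLK2, KLK3 and KLK4 stand on this list and on the list of secreted products. PPAP2A, a lipid phosphatase, fell from 101 ± 4.03 to 30.7 ± 1.08 and from 95.9 ± 7.06 to 47.0 ± 3.15 (SD, n = 3 each).

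Lists of genes that handle the substrates of FOLH1 and of the STEAP family were also counted. Of 15 folate genes 12 were tested in each line, with 1 rising and 4 falling in LNCaP-EnzR and 0 rising and 6 falling in C4-2B-EnzR. GGH, which like FOLH1 removes glutamates from folate, fell from 52.6 ± 10.0 to 32.2 ± 2.31 in C4-2B-EnzR and stood at 4.17 ± 0.22 and 5.09 ± 0.60 in LNCaP-EnzR (SD, n = 3 each), responses that differed by -0.96 (adjusted p = 0.00552, limma). MTHFD1 fell in C4-2B-EnzR (-0.59, adjusted p = 0.00387), MTHFD2 in LNCaP-EnzR (-0.46, adjusted p = 0.00204), and SHMT1 rose in LNCaP-EnzR (0.62, adjusted p = 0.000738, limma); these encode folate-dependent enzymes of one-carbon metabolism. Of 16 iron and copper genes 11 were tested in LNCaP-EnzR, with 2 rising and 2 falling, and 13 in C4-2B-EnzR, with 5 rising and 5 falling. TFRC, the transferrin receptor, fell from 26.8 ± 1.80 to 14.9 ± 1.498 and from 78.5 ± 4.14 to 35.6 ± 2.16 (SD, n = 3 each). The ferritin chains FTH1 and FTL rose in C4-2B-EnzR by 0.30 and 0.31 on the log2 scale (adjusted p = 0.0311 and 0.0101, limma), and ACO1, an iron sensor, rose in both lines (0.36 and 0.46). Without LNCaP-EnzR shCXCR7 replicate 3 the iron and copper count in LNCaP-EnzR was 4 rising and 3 falling of 11.

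Genes whose levels ran closely with each antigen over the 12 libraries were picked by Pearson's r among 12136 genes with a mean of at least 1 RPKM (12137 for TRPM8 and TMEFF2, which are below that mean). These r values are descriptions, since the points share lines, groups and library effects. They were highest for 4 antigens, at 0.99 for SLPI with CCDC85A, LOC100129434 and PIK3CD, at 0.99 for ACPP with GRTP1, PLD2 and RILPL2, at 0.97 to 0.98 for TRPM8 with MYCL, AKNA and ZBTB39, and at 0.98 for STEAP2 with CD46, LUC7L3 and ZMPSTE24. FOLH1 ran like SC5D, an enzyme of sterol synthesis, and MAT2A (0.95 each). STEAP1 ran most like PCMT1, PSMA3-AS1 and NDUFA4 (0.95 to 0.96), TMEFF2 like PEG3, ALDH3B1 and NKX3-2 (0.96 to 0.97), and SLC45A3 like HIC2 and TNFRSF14 (0.89 each).

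Basal markers were near 0 in all libraries but one. The 4 basal markers summed to at most 0.235 in 11 libraries, and KRT5, KRT14 and KRT15 were at 0 in every C4-2B-EnzR control library. In LNCaP-EnzR shCXCR7 replicate 3 they summed to 4.46. Of 6 fibroblast and 6 blood markers, 1 of each was tested, COL1A1 and CD68, which stood at 3.34 ± 0.11 and 4.02 ± 0.11 in LNCaP-EnzR and at 9.99 ± 1.60 and 8.36 ± 1.52 in C4-2B-EnzR control libraries (SD, n = 3 each). CD68 fell in both lines, with log2 fold changes of -0.39 (adjusted p = 0.0108, limma) and -0.43 (adjusted p = 0.0342, limma), and COL1A1 did not pass the test (0.13 and -0.14). Of 6 neuroendocrine markers only SYP and ENO2 were tested, and they went opposite ways in both lines, SYP rising by 1.196 and 2.43 and ENO2 falling by 1.08 and 0.79 on the log2 scale. ENO2 stood at 12.4 ± 1.38 and 20.2 ± 0.97 in control libraries (SD, n = 3 each), a level like that of ACPP in C4-2B-EnzR. INSM1 was at 0 in every LNCaP-EnzR control library. The part of these genes in the antigen results was not tested.

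The LNCaP-EnzR results depend on the rescaling. On the values as deposited, where the median of all genes was -0.31 on the log2 scale, the log2 fold change was -0.95 for STEAP1 and -1.01 for STEAP2, larger than after rescaling, but with standard errors of 0.59 each and no call.

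**Figure D5:**
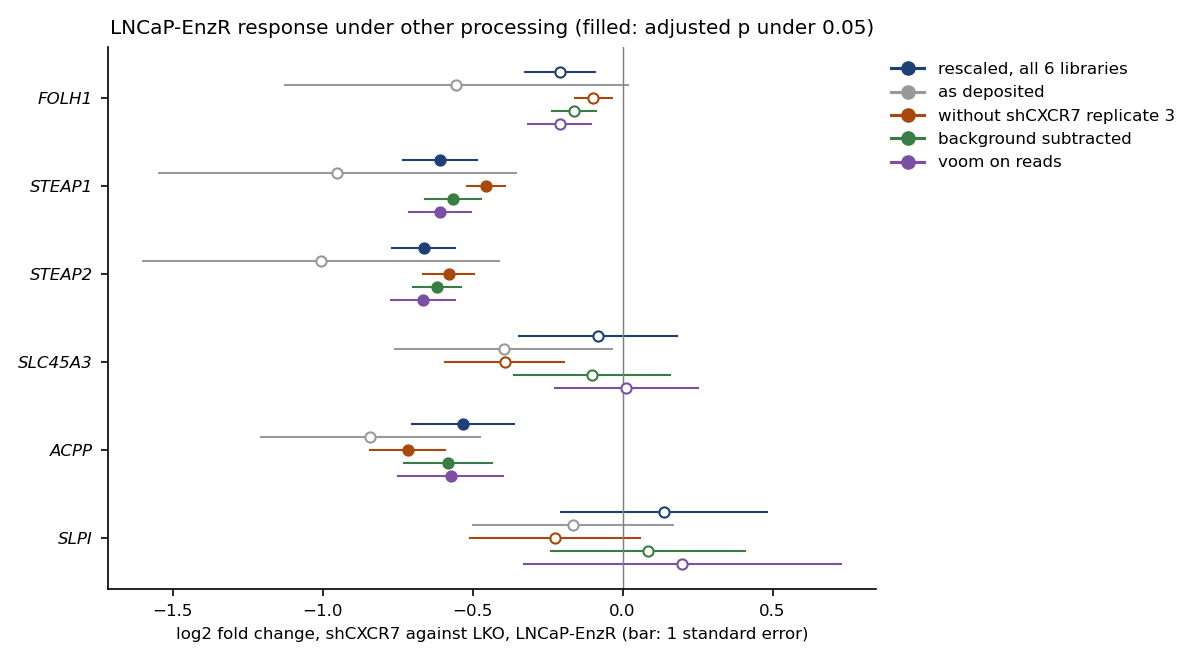
Log2 fold change of the 6 tested antigens in LNCaP-EnzR (x axis, with bars of 1 standard error) under 5 ways of processing, filled where the adjusted p is under 0.05. Of these 5, STEAP1, STEAP2 and ACPP are filled in all but the values as deposited, where no antigen is, and SLPI and SLC45A3 change side of 0.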

How the data were processed

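RNA in 12 libraries of enzalutamide-resistant prostate cancer cells was measured by RNA-seq. The authors prepared NEBNext Ultra libraries, read them single-end, aligned reads with STAR to hg38 and deposited the RPKM of each gene in 1 table, which an in-house script of theirs computed. The sources used here do not state the annotation or the strand setting of the counting. Of 26475 lines, 32 held no value and 4 repeated a symbol, which left 26439 genes.

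Read numbers were computed back from the steps between RPKM values, and came out within 0.02 of whole reads for 100% of the 25028 genes with a value. RPKM was divided by median-of-ratios factors (0.493 for LNCaP-EnzR shCXCR7 replicate 3, 0.946 to 1.21 for the others), computed within each line, or over the 6 control libraries to compare the lines. Fits used limma 3.58.1 (R 4.3.3) on log2(rescaled RPKM + 0.25) with a variance trend, over genes of at least 0.5 in at least 3 libraries, each line by itself, and an interaction term over 12 libraries for the difference of responses. A fold change on this scale understates the change of low genes. Genes were called at a Benjamini-Hochberg adjusted p under 0.05 over all tested genes. Tables and figures used Python 3.11.15, numpy 2.4.6, pandas 2.3.3, scipy 1.17.1 and matplotlib 3.10.9. Positions came from GENCODE 44, whose build matches the authors', and promoters from RefSeq. The fits were first tested on simulated data.

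The antigens and the 6 gene lists (family relatives, other surface targets, other secreted products, androgen-induced, folate, and iron and copper genes), and the 5 marker lists, were chosen with earlier results of these data known, and some of their genes are not reported here. Named list genes are up to 4 per list with the highest mean among those called in either line. Replicates of a group differed by more than counting error (chi-square per degree of freedom 1.63 to 19.9), so none was a copy. Same-numbered libraries did not deviate together, so the numbers were not used as pairs. The paper describes its C4-2B-EnzR RNA-seq as done in duplicate, whereas 3 libraries per group were deposited. Alternatives were other scalings, pseudocounts, filters, forms of empirical Bayes, voom on the recovered reads, background subtraction, a replicate block, limits of 2-fold and 0.001, and leaving out each library. Count intervals and limits cover counting error only. Depth limits TMEFF2, TRPM8 and SLPI in LNCaP-EnzR.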

Additional observations from a re-analysis of the deposited data

Results flagged for a closer look

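The response of SLPI to CXCR7 knockdown differed between the lines by -2.80 on the log2 scale (C4-2B-EnzR minus LNCaP-EnzR, adjusted p = 0.00155 for the interaction term in limma), the only difference of response among the 7 antigens tested that passed. SLPI fell in 3 of 3 C4-2B-EnzR shCXCR7 libraries, whereas LNCaP-EnzR values overlapped between groups on 6 to 25 reads per library. Without LNCaP-EnzR shCXCR7 replicate 3 the difference was -2.43 (adjusted p = 0.0021, limma). CXCR7 itself fell further in C4-2B-EnzR, and line and depth of knockdown cannot be told apart here.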

How the results depend on the processing

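Directions held for STEAP1, STEAP2 and ACPP within LNCaP-EnzR, and for FOLH1, STEAP2, ACPP and SLPI within C4-2B-EnzR, under every alternative run. FOLH1 in LNCaP-EnzR kept its sign but was called in 0 of 21 alternatives and was -0.0080 with quantile normalization. TRPM8 in C4-2B-EnzR kept its direction in the 15 alternatives that tested it, where a filter applied through the control libraries alone. On the RPKM as deposited, 0 antigens were called in LNCaP-EnzR, with 607 genes in all against 5316 after rescaling, and 53 genes in the difference of responses against 1704. At 2-fold and an adjusted p under 0.001 the antigens called were 0 in LNCaP-EnzR (510 genes in all), 1 in C4-2B-EnzR, SLPI (555), 0 in the difference of responses (60) and 3 between the control lines (2175). In the difference of responses, where 1 antigen was called, 4 were with quantile normalization, 3 with voom, and 2 with a pseudocount of 1, a filter at 1 RPKM, robust empirical Bayes, background subtraction or, added after seeing the data, factors over genes of at least 1 RPKM, STEAP1 being one of those called each time. Leaving out 1 library, with the main filter kept, gave 2 or 3 antigens called in LNCaP-EnzR. In C4-2B-EnzR it gave 3 to 5 (3 without LKO replicate 2, where TRPM8 was not tested). In the difference of responses it gave 1 to 3 (3 without LNCaP-EnzR shCXCR7 replicate 1). All genes called in that difference ranged from 1023 (without LNCaP-EnzR LKO replicate 3) to 1906.

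Values near 0 changed sign. SLC45A3 in LNCaP-EnzR was 0.0129 with voom and 0.0175 with voom and no filter, and ranged from -0.39 to 0.14 without 1 library. In C4-2B-EnzR it was 0.0243 as deposited, 0.0570 with quantile normalization and 0.00522 with voom, and ranged from -0.22 to 0.16, and the difference between lines ranged from -0.15 to 0.38. SLPI in LNCaP-EnzR was -0.17 as deposited and -0.23 without shCXCR7 replicate 3, filtered or not, with a range of -0.23 to 0.50. STEAP1 in C4-2B-EnzR ranged from -0.12 to 0.0149. The difference of responses as deposited was 0.29 for FOLH1 and 0.0538 for ACPP. None of these values passed the test.

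The replicate numbers are only numbers here (correlations of same-numbered libraries -0.32 to 0.07). Across numbers, C4-2B-EnzR LKO 1 and shCXCR7 3 deviated together at 0.28, and LKO 3 and shCXCR7 2 at 0.26. The reason was not tested, and these libraries may not be independent. With a replicate block 4 antigens were called in C4-2B-EnzR, FOLH1 being lost (adjusted p = 0.0618, limma), 3 in LNCaP-EnzR, 1 in the difference of responses and 6 between the control lines, where SLC45A3 was added (adjusted p = 0.0406, limma).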

Other observations

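Neighbours of SLPI and SLC45A3 within 250 kb did not share one pattern with them. Of 5 genes tested around SLPI in each line, SDC4, which encodes a cell-surface heparan sulfate proteoglycan, rose from 35.5 ± 3.43 to 61.5 ± 8.58 in LNCaP-EnzR and from 45.4 ± 3.47 to 73.7 ± 2.79 in C4-2B-EnzR (SD, n = 3 each). Its log2 fold changes were 0.79 (adjusted p = 0.000515, limma) and 0.70 (adjusted p = 0.000335, limma), in the line where SLPI fell as in the line where it did not. PIGT, a subunit of the enzyme that attaches GPI anchors, rose in C4-2B-EnzR (0.21, adjusted p = 0.0459, limma) and stood at -0.06 in LNCaP-EnzR. Around SLC45A3, itself without a detectable change, 3 of 5 tested genes fell in LNCaP-EnzR (ELK4, RAB29 and SLC41A1) and 3 of 6 in C4-2B-EnzR (CDK18, ELK4 and SLC41A1). These genes were picked by position.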
